A study of Homo sapiens with 12 samples.

Results

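The SOXC genes are SOX11, SOX4 and SOX12, which encode the closely related transcription factors of 1 subgroup of the SOX family. They were found by their symbols in the array annotation, and each was read by 1 probe set, so that the members are 3 of 33297 probe sets and 3 of 18417 genes with a probe set of their own. Granta 519, an established mantle cell lymphoma (MCL) cell line, was profiled on 12 Affymetrix Human Gene ST arrays, whose probes lie along the exons of each gene. 4 arrays each came from cells given SOX11 siRNA, cells given a control siRNA without a target, and untreated cells. For each transfection 4000000 cells received 100 pmol of siRNA by nucleofection, an electroporation method, and RNA was taken after 20 hours. All groups were the same cell line, so every value below belongs to 1 line. The siRNA arrays belong to 1 time point, and for the untreated arrays no harvest time is stated. The siRNA arrays came from separate transfections, while for the untreated arrays nothing states separate cultures, and p-values then measure the spread between these arrays, which may be technical.

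SOXC proteins bind DNA through a high mobility group (HMG) box, which bends the double helix at short A- and T-rich motifs, and they activate transcription through a domain at the other end of the protein. In the embryo SOX4 and SOX11 act together in neural and mesenchymal progenitors, where SOX12 is the weaker activator in mouse studies. SOX4 is needed for early B-cell development in the mouse. SOX11 is not a factor of normal B cells but is expressed in most MCL and is used as a diagnostic marker of that lymphoma. In the RefSeq annotation of GRCh38.p14, SOX11 lies on chromosome 2 (5692384 to 5701385), SOX4 on chromosome 6 (21593751 to 21598619) and SOX12 on chromosome 20 (325552 to 330224). The siRNA targets the transcript of SOX11.

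SOX11 itself was strongly lower with SOX11 siRNA, and neither SOX4 nor SOX12 differed between the siRNA groups by more than the spread between arrays. The deposited signals are linear values made with PLIER, a model that combines the probes of a set, and they have no fixed unit, so a level is compared between arrays and never between genes. Tests were made on log2(signal + 16) with limma over the 3 groups together. The added 16 makes the fold changes of dim genes smaller. A gene was called at an adjusted p (Benjamini-Hochberg over all 33297 probe sets) under 0.05.

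The SOX11 signal was 227, 229, 188 and 225 on the 4 SOX11 siRNA arrays. It was 1096, 1191, 1112 and 1026 on the control siRNA arrays and 1028, 978, 978 and 1041 on the untreated arrays. Every SOX11 siRNA array lay far below every other array, and the arrays with control siRNA overlapped those of untreated cells. The means were 217 ± 19.7 with SOX11 siRNA, 1106 ± 67.7 with control siRNA and 1006 ± 33.0 in untreated cells (SD, n = 4 each). As a share of the control siRNA mean, the single SOX11 siRNA arrays held 20.5%, 20.7%, 17.0% and 20.4%, so the remaining SOX11 signal varied little between transfections. Against control siRNA the log2 fold change was -2.27 (standard error 0.0893, 95% interval -2.46 to -2.08, limma adjusted p = 1.7e-09), a 4.82-fold lower value. Against untreated cells it was -2.14 (95% interval -2.33 to -1.95, limma adjusted p = 4.24e-09). Both comparisons share the SOX11 siRNA arrays. Of all 33297 probe sets, that of SOX11 had the lowest log2 fold change in each of them, with 16 added to the signals. On the linear scale the means of SOX11 and TMSB15A were close against untreated cells, where SOX11 fell by 78.4% and TMSB15A, an actin-binding thymosin, fell by 79.2%. In RNA from whole cultures, fewer cells with a transcript and less transcript per cell cannot be told apart. The plot of SOXC signals by array shows the separation for SOX11 beside the overlap for its relatives.

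**Figure D1:**
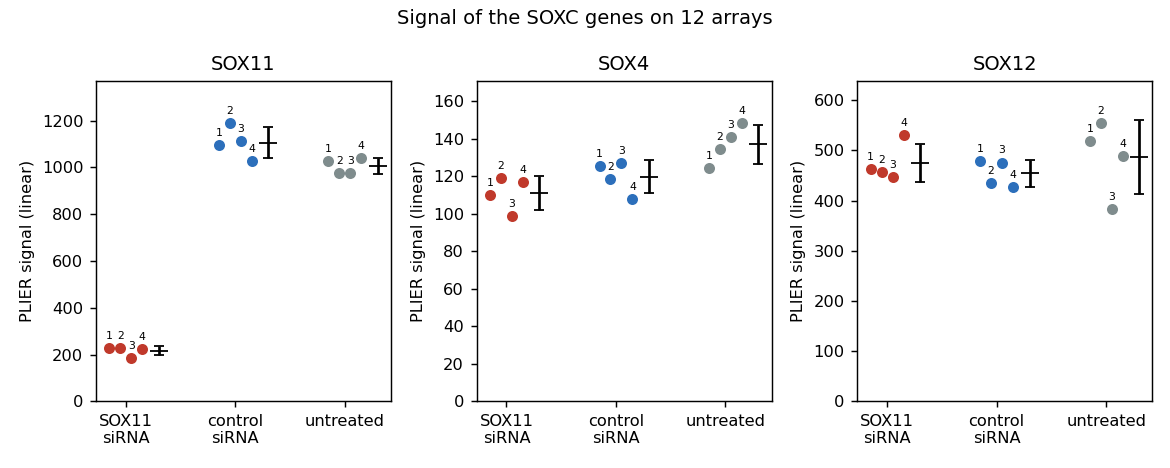
PLIER signal (linear scale, from 0) of SOX11, SOX4 and SOX12 on each array, with SOX11 siRNA in red, control siRNA in blue and untreated cells in grey; small digits are replicate numbers and black bars are the mean and SD of 4 arrays. SOX11 lay between 188 and 229 with SOX11 siRNA and at 978 or above on all other arrays, while the siRNA groups overlapped for SOX4 and SOX12.

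SOX11 siRNA replicate 3 had the lowest SOX11 signal, and also the lowest SOX4 and SOX12 signal of its group. That array had the lowest median signal of all probe sets among the 12 arrays, 69.2, where the others had up to 91.8. After quantile normalization, which gives all arrays the same distribution of values, the log2 SOX11 values of the SOX11 siRNA arrays were 7.84, 7.94, 7.87 and 7.83. Replicate 3 was then no longer the lowest. The log2 fold change of SOX11 against control siRNA lay between -2.35 and -2.21 over all 22 alternative settings, with an adjusted p of at most 2.41e-06.

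Nucleofection with control siRNA did not give a called difference in SOX11. The siRNA and the nucleofection cannot be told apart in a comparison with untreated cells. The log2 fold change against untreated cells was 0.13 (95% interval -0.06 to 0.32, limma adjusted p = 0.758), which leaves room for a value 1.25-fold higher with control siRNA. After quantile normalization the log2 values were 10.16, 10.13, 10.15 and 10.18 with control siRNA, against 10.01, 10.02, 9.91 and 10.03 in untreated cells. The groups no longer overlapped on that scale, yet the adjusted p was 0.16 (limma). Over all probe sets 0.387% were called in this comparison, 57 higher and 72 lower. That split was 352 higher and 292 lower with quantile normalization, and 126 higher and 56 lower with centring each array on its median.

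SOX4, the relative with a known part in B-cell progenitors, had a signal of 110.0, 119, 98.65 and 117 on the SOX11 siRNA arrays. It was 126, 119, 127 and 108 with control siRNA and 124, 134.5, 141 and 149 in untreated cells. The siRNA groups overlapped, and all 4 SOX11 siRNA arrays lay below all 4 untreated arrays. The means were 111.1 ± 9.13 with SOX11 siRNA, 119.9 ± 8.83 with control siRNA and 137 ± 10.3 in untreated cells (SD, n = 4 each), and no neighbouring pair in this order passed the test. Between the siRNA groups the log2 fold change of SOX4 was -0.10 (standard error 0.0913, limma adjusted p = 1). Its 95% interval of -0.29 to 0.10 corresponds to a ratio of 0.817 to 1.07 over control siRNA. A change at least this large, in either direction, was seen for 37.4% of all probe sets.

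Against untreated cells SOX4 had a log2 fold change of -0.27 with SOX11 siRNA (95% interval -0.46 to -0.07, limma adjusted p = 0.158) and -0.17 with control siRNA (95% interval -0.37 to 0.02, limma adjusted p = 0.66). Neither was called. Groups that did not overlap, with the SOX11 siRNA arrays lower, were found for 5.54% of all probe sets in the first of these comparisons. After quantile normalization the SOX11 siRNA arrays (log2 values of 6.95 to 7.15) and the untreated arrays (7.05 to 7.32) overlapped for SOX4. The call did not change in any of the 22 alternative settings, where the adjusted p was 0.109 to 0.379.

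SOX12, the third member, had a signal of 464, 457, 448 and 531 with SOX11 siRNA. It was 479.5, 435, 476 and 427 with control siRNA and 519.6, 555, 384 and 489.7 in untreated cells. The 3 groups overlapped, and the untreated arrays held both the highest and the lowest value. The means were 474.9 ± 38.3 with SOX11 siRNA, 454.2 ± 27.4 with control siRNA and 487.1 ± 73.7 in untreated cells (SD, n = 4 each), with a coefficient of variation of 15.1% in the untreated group. Between the siRNA groups the log2 fold change was 0.06 (standard error 0.110, limma adjusted p = 1). Its interval of -0.17 to 0.30 corresponds to a ratio of 0.887 to 1.23 over control siRNA. A change of SOX12 within that range is not excluded, and the interval is not a limit of detection. The value was -0.03 (95% interval -0.26 to 0.21) with SOX11 siRNA and -0.09 (95% interval -0.32 to 0.15) with control siRNA, each against untreated cells. The first of these turned to 0.08 when each array was centred on its median, so SOX12 has no settled direction there.

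**Figure D2:**
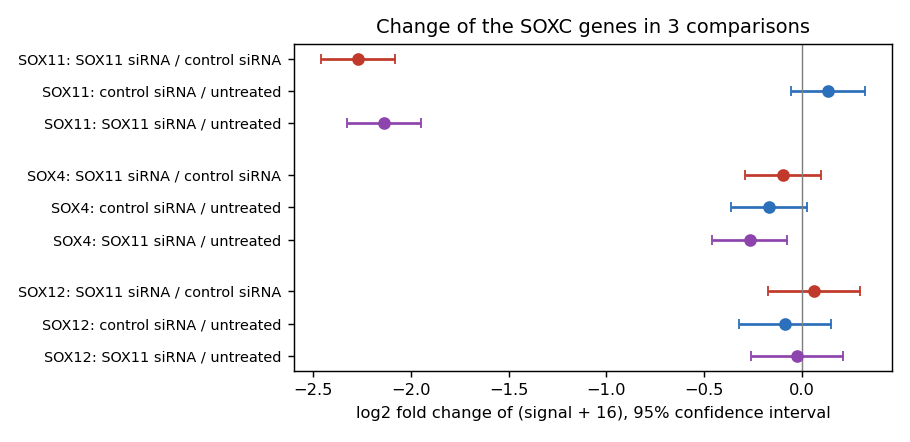
Log2 fold change of (signal + 16) of the SOXC genes in the 3 comparisons, with 95% confidence intervals from limma; each row names the group on top first. The intervals of SOX11 lay between -2.46 and -1.95 in both comparisons with SOX11 siRNA, and those of SOX12 all included 0.

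Whether SOX11 and its relatives changed unequally was tested within arrays. On the log2 scale the SOX11 value minus the SOX4 value of the same array was 0.873 ± 0.051 with SOX11 siRNA and 3.05 ± 0.091 with control siRNA (SD, n = 4 each). The difference of these differences was -2.17 (exact two-sided permutation test over arrays, p = 0.0286 adjusted over 2 pairs). For SOX11 minus SOX12 the values were -1.08 ± 0.127 with SOX11 siRNA and 1.26 ± 0.115 with control siRNA (SD, n = 4 each), a difference of -2.33 with the same exact p. This p is the smallest that 4 against 4 arrays allow. SOX11 is the target of the siRNA, so both tests largely restate its own fall. A within-array difference shows unequal change, not that SOX4 or SOX12 stayed the same. With the group means removed, the 3 genes can also be set against each other over the 12 arrays. Pearson's r was 0.61 for SOX11 and SOX4 (Spearman's rho 0.52), 0.23 for SOX11 and SOX12 (rho 0.22) and 0.10 for SOX4 and SOX12 (rho 0.22), as a description of arrays that also share their overall signal.

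The other SOX genes were read for comparison. All 16 had a probe set with 1 symbol, among them SOX2 of the SOXB subgroup, which keeps stem cells undifferentiated, SOX9 of cartilage, and SOX5 and SOX6, which lack an activation domain. None of the 16 was called higher or lower by limma in any of the 3 comparisons, 0 had an unadjusted p under 0.05, and 0 were called by the plain analysis of variance named in the methods. Between the siRNA groups 0.183% of all probe sets were called, 1 higher and 60 lower, and at that background 0 of 16 is no result about these genes. Their median log2 fold change was 0.03 with a range from -0.21 (SOX9) to 0.18 (SOX8), against a median of 0.01 over all probe sets. SOX11 stood outside that range and both SOX4 and SOX12 lay within it.

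**Figure D3:**
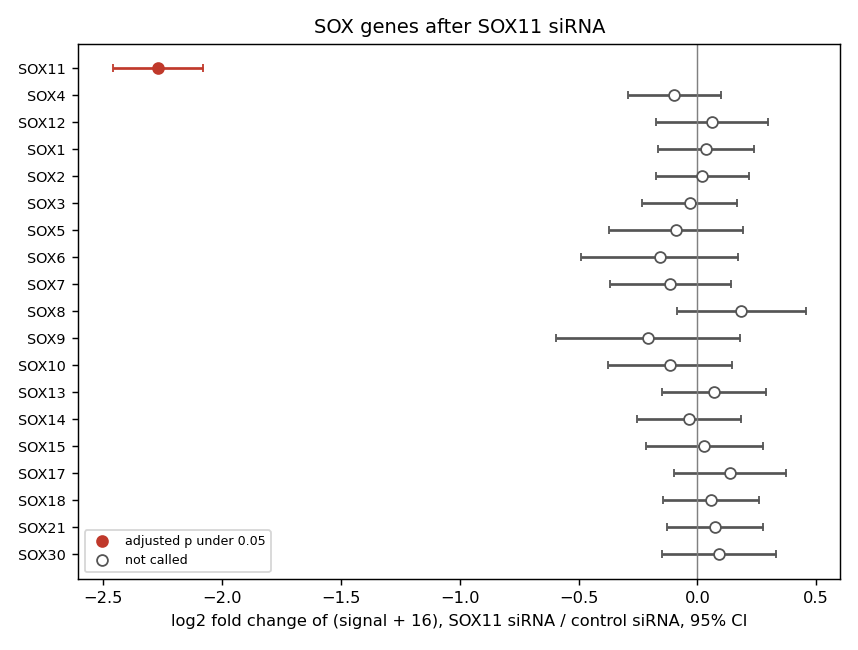
Log2 fold change of (signal + 16), SOX11 siRNA over control siRNA, for the 3 SOXC genes and 16 other SOX genes, with 95% confidence intervals; filled red marks an adjusted p under 0.05. SOX11, at -2.27, was the only SOX gene called in this comparison, and the other values lay between -0.21 and 0.18.

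None of the measured genes that flank the SOXC genes on the chromosome was called between the siRNA groups. That comparison called 0.183% of all probe sets, so a count of 0 is no result about so few genes. Of the nearest protein-coding neighbours, those measured were CMPK2 and RSAD2 beyond SOX11, E2F3, CDKAL1 and PRL around SOX4, and C20orf96, ZCCHC3 and NRSN2 around SOX12. Their log2 fold changes between the siRNA groups lay between -0.16 (C20orf96) and 0.12 (PRL), each with a limma adjusted p of 1 and with overlapping groups. Against untreated cells C20orf96 was at -0.35 with SOX11 siRNA, without overlap but not called (limma adjusted p = 0.143). Groups without overlap in this direction were found for 5.54% of all probe sets in that comparison. Beyond SOX11 these were CMPK2 (0.06), which begins 1139167 bases past its end, and RSAD2 (-0.06), both interferon-induced genes that lie beside each other.

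Windows around the start sites of the SOXC genes were read from RefSeq (GRCh38.p14, 250 bases before to 50 after the start), and SOX4 and SOX12 were matched there. They are shown because SOX proteins bind the letters AACAAT or AACAAAG, which were searched on both strands and share their first 5 letters, a match to one never being a match to the other. SOX4 is at chr6:21593501-21593800 and SOX12 at chr20:325302-325601, both on the plus strand, written 5′ to 3′.
SOX4: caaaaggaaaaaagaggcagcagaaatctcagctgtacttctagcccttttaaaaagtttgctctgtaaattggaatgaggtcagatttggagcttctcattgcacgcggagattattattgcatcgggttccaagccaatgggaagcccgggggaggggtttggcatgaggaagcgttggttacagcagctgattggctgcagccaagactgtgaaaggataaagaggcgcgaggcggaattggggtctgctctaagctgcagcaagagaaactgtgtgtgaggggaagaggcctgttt
SOX12: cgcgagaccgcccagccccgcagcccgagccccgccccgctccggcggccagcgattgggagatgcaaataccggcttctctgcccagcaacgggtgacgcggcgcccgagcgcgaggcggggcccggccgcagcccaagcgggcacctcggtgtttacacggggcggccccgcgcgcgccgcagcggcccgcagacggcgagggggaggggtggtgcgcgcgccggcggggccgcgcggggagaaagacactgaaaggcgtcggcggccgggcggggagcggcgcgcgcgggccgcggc
Neither window held either motif. AACAAT was in 10.1% and AACAAAG in 5.2% of the 35116 RefSeq windows of this length, and 14.5% held at least 1 of them. The windows differ in base composition. That of SOX4 had 49.3% G and C and 8 CpG dinucleotides, while that of SOX12 had 80.3% and 54, where the median over all windows was 58.7% and 14.

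Genes reported to respond to SOXC factors were then read beside SOX11, from lists written with earlier results of these data known. In neural and mesenchymal progenitors SOXC proteins switch on cytoskeleton and transcription factor genes, of which 6 of 7 were measured. TEAD2, a transcription factor of the Hippo pathway, was the 1 called, and it was lower, as were 0.18% of all probe sets. Its signal was 98.2, 102, 66.7 and 93.8 with SOX11 siRNA, against 146, 168, 153 and 167 with control siRNA, without overlap (log2 fold change -0.73, standard error 0.109, limma adjusted p = 0.00812). Groups without overlap in this direction were found for 1.35% of all probe sets. The TEAD2 call was lost without control siRNA replicate 2 (adjusted p = 0.0502), in a fit of the 2 siRNA groups alone (0.0548) and by that analysis of variance (0.0612). The microtubule and neurofilament genes DCX, NEFL and NEFM gave log2 fold changes of -0.08, 0.03 and -0.11, with an adjusted p of 1.

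Of 9 genes reported as SOX11 targets in MCL, 4 were called lower and 0 higher with SOX11 siRNA than with control siRNA, where 0.18% of all probe sets were called lower, and the median log2 fold change of the 9 was -0.43. DBN1, SETMAR and HILPDA were chosen by the study on these samples, so neither their fall nor the count and median that include them is independent evidence. Of the other 6 genes, 1 was called, BCL6. The direction reported for each gene was not used in these counts, so a fall does not by itself match a report. HILPDA, a lipid droplet protein induced by hypoxia, was at 146, 106, 115 and 100.4 with SOX11 siRNA, against 330, 294, 287 and 233 with control siRNA (log2 fold change -1.19, limma adjusted p = 0.000451). DBN1, the actin-binding protein drebrin, had a log2 fold change of -0.88 (limma adjusted p = 0.00533, but 0.0698 with that analysis of variance), and SETMAR, a histone methyltransferase fused to a transposase, one of -0.76 (limma adjusted p = 0.00333). BCL6, the repressor that marks germinal centre B cells, had 54.8, 56.6, 46.75 and 51.6 with SOX11 siRNA, against 74.8, 75.0, 79.2 and 75.8 with control siRNA (log2 fold change -0.43, limma adjusted p = 0.0477). The BCL6 call is at the edge of the threshold and was lost in 18 of 21 alternative settings. Over all 21 settings the adjusted p was 0.0194 to 0.256. Its mean was 52.4 with SOX11 siRNA, 76.2 with control siRNA and 67.8 in untreated cells. The control siRNA arrays lay above the untreated arrays without overlap for BCL6, as they did for 2.11% of all probe sets. BCL6 was not called with SOX11 siRNA against untreated cells (log2 fold change -0.29, limma adjusted p = 0.079).

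CXCR4, a chemokine receptor of B-cell homing, was not called between the siRNA groups (log2 fold change -0.43, limma adjusted p = 0.27). Its groups did not overlap, as was found in this direction for 1.35% of all probe sets. With quantile normalization its adjusted p was 0.00353. Against untreated cells, where 2.4% of all probe sets were called and 1.6% were lower, CXCR4 was called lower with SOX11 siRNA (log2 fold change -0.60, limma adjusted p = 0.00826). The rest of the list, PAX5, PDGFA, PTK2 and MSI2, had log2 fold changes of -0.15, 0.20, 0.02 and -0.19 between the siRNA groups, none called. Of 5 genes linked to SOX4 in B-cell progenitors or tumours, 0 were called between the siRNA groups by limma or by the analysis of variance. Limma called 0.183% of all probe sets there, so a count of 0 is no result about so few genes. EZH2, a histone methyltransferase, was the 1 with an unadjusted p under 0.05, at -0.22 (limma unadjusted p = 0.0228, adjusted p = 0.998), but its adjusted p was 0.042 after quantile normalization.

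Regulators and partners of the SOXC proteins, 13 of 15 measured, held 0 limma calls between the siRNA groups, and 0 had an unadjusted p under 0.05 or a call by the analysis of variance. With 0.183% of all probe sets called, a count of 0 is no result about so few genes. The same counts held for 7 measured of 8 genes listed as other HMG-box factors and beta-catenin. SDCBP, the adaptor syntenin that binds SOX4 and stabilizes it, was higher with SOX11 siRNA than in untreated cells. Its signal was 1777, 1626, 1422 and 1568 with SOX11 siRNA, 1271, 1652, 1319 and 1367 with control siRNA and 1067, 986, 1089 and 1140 in untreated cells. Both siRNA groups lay above the untreated arrays, as did the SOX11 siRNA arrays for 2.3% and the control siRNA arrays for 2.11% of all probe sets. The log2 fold change of SDCBP was 0.57 with SOX11 siRNA (limma adjusted p = 0.00778, in a direction called for 0.805% of all probe sets) and 0.38 with control siRNA (limma adjusted p = 0.166), each against untreated cells, and 0.19 between the siRNA groups (limma adjusted p = 1).

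**Figure D4:**
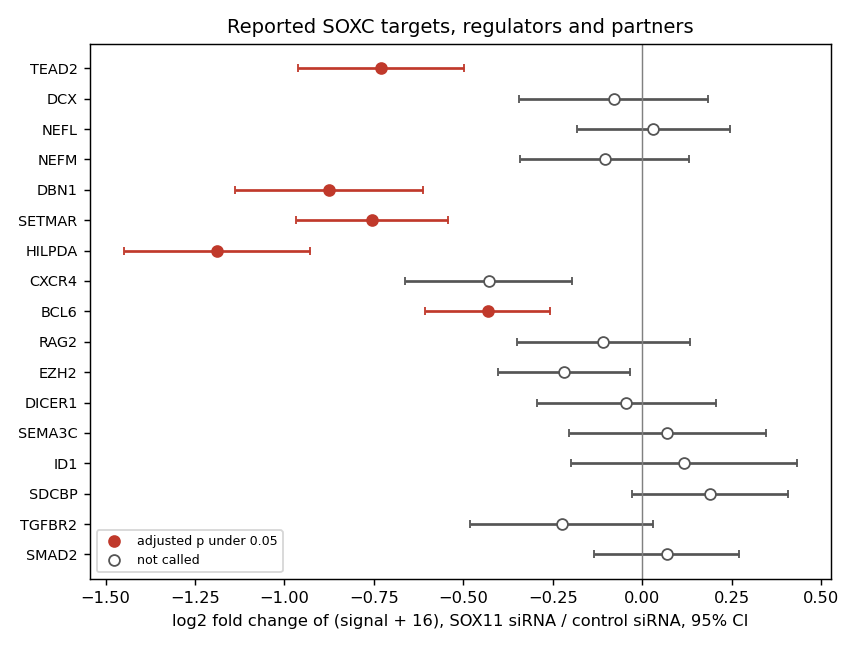
Log2 fold change of (signal + 16), SOX11 siRNA over control siRNA, for named genes reported to respond to SOXC factors, to regulate them or to bind them, with 95% confidence intervals; filled red marks an adjusted p under 0.05. TEAD2, DBN1, SETMAR, HILPDA and BCL6 were called lower, and no gene shown was called higher.

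SETMAR and TEAD2 are shown because their windows held a motif among the genes that fell, the capitals marking the AACAAAG letters or their reverse complement CTTTGTT. The SETMAR window is chr3:4303119-4303418 on the plus strand and the match lies 231 bases before the start. TEAD2 has 2 windows, each with a match, and the one shown is chr19:49362367-49362666 on the minus strand, where the match lies 28 bases before the start.
SETMAR: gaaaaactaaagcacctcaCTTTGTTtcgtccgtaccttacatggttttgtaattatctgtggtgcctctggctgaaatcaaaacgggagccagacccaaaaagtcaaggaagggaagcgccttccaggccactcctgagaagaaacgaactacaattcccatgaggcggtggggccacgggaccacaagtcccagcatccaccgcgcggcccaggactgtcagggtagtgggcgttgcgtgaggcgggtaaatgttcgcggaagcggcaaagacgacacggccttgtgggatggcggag
TEAD2: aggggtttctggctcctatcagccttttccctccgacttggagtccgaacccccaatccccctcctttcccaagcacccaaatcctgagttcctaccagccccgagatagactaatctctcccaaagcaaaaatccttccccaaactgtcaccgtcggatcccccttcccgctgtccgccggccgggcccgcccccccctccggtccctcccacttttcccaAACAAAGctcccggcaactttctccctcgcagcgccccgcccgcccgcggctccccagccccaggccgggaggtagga
Of the 10 genes named here as fallen, the called list members and the 5 most like SOX11, 9 had windows, and 3 of these (HMGB3, SETMAR and TEAD2) held a motif in at least 1 window. That was 5 of 13 windows or 38.5%, where 14.5% of all windows held a motif, but HMGB3 and TEAD2 gave 2 of the 5 windows each. No test was made on so few genes, and a match of letters is a description and not a site.

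The genes whose signal followed SOX11 most closely over the 12 arrays were TMSB15A (Pearson's r = 0.98), HMGB3 (0.98), CNOT6 (0.98), TIAM1 (0.97) and TUBA1A (0.97), out of 11619 probe sets with 1 symbol and a mean signal at or above the median. These correlations rest on the 4 SOX11 siRNA arrays. Over the other 8 arrays, r with SOX11 was -0.06 for TMSB15A, which binds actin monomers, and 0.09 for TIAM1, an activator of RAC1. It was 0.60 for HMGB3, an HMG-box chromatin protein, 0.54 for CNOT6, an mRNA deadenylase, and 0.78 for TUBA1A, an alpha-tubulin. TMSB15A was at 42.1, 33.8, 27.8 and 33.2 with SOX11 siRNA, against 139, 173, 129 and 130 with control siRNA. That all 5 lay lower with SOX11 siRNA follows from how they were chosen and is no result of its own, and TMSB15A met the limit on mean signal only through the groups in which it was high. The CNOT6 call was lost without control siRNA replicate 2 (limma adjusted p = 0.0574) and in a fit of the 2 siRNA groups alone (0.0805). Other genes followed SOX4 and SOX12. They too are the highest of the 11619 probe sets, so their high r follows from how they were chosen and is no result of its own. SOX4 followed GAB3 most closely, an adaptor of cytokine receptors (r = 0.95 over 12 arrays and 0.93 over the 8 arrays without SOX11 siRNA), and then AKAP12 (0.93), NECTIN1 (0.92), DENND11 (0.91) and TADA2A (0.91). SOX12 followed EPHA10 (0.95), ZBTB22 (0.94), CYP2E1 (0.93), MYPOP (0.93) and C11orf21 (0.93). Like SOX12, each of these genes had its lowest value on untreated replicate 3. Removing the group means keeps such differences between single arrays. With the group means removed, GAB3 stayed among the 5 genes most like SOX4, and CYP2E1 and EPHA10 among the 5 most like SOX12, while ZBTB22 was there through another of its probe sets.

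**Figure D5:**
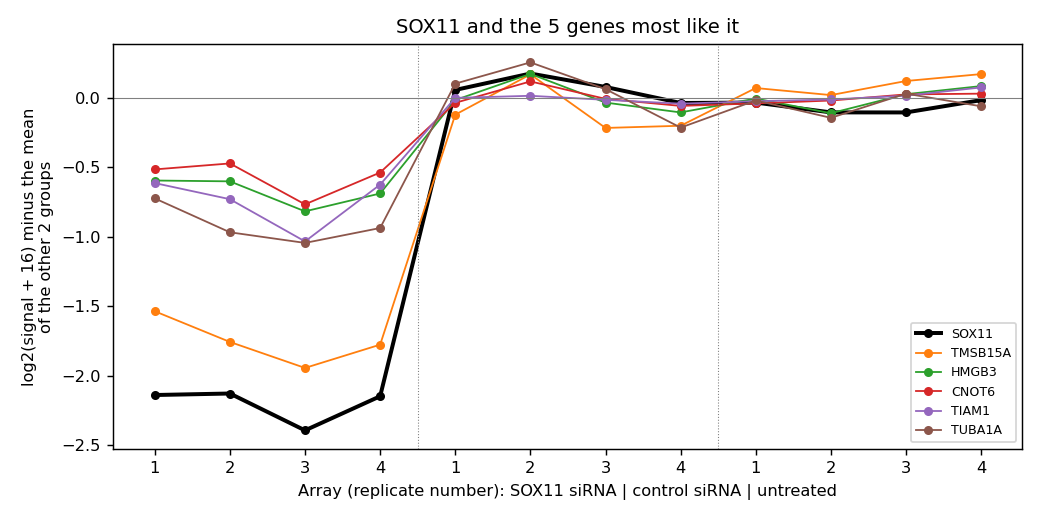
Log2(signal + 16) of SOX11 and of the 5 genes with the highest Pearson's r with it, on each of the 12 arrays, minus the mean of the 8 arrays without SOX11 siRNA. All 6 lines fell on the 4 SOX11 siRNA arrays, SOX11 by the most, and stayed near 0 on the others.

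Signals of cell type markers were summed to compare the groups of arrays, and the sums of different lists are not compared. The 5 measured B-cell and MCL markers summed to 9675 to 11850 with SOX11 siRNA, 9454 to 11150 with control siRNA and 10230 to 11590 in untreated cells. MS4A1 and CCND1, with means of 4544 and 3213 with SOX11 siRNA, weigh most in these sums. CD22, a B-cell surface receptor, was lower than in untreated cells with SOX11 siRNA (log2 fold change -0.48, limma adjusted p = 0.0118) and with control siRNA (-0.53, limma adjusted p = 0.0169). In these 2 comparisons 2.4% and 0.387% of all probe sets were called, in that order. The 6 T and NK markers summed to 263 to 386 with SOX11 siRNA, 299 to 355 with control siRNA and 279.6 to 385 in untreated cells, and none was called. The 6 myeloid markers summed to 293 to 380.0 with SOX11 siRNA, 287 to 348 with control siRNA and 274 to 361 in untreated cells, and none was called. With 0.183% of all probe sets called between the siRNA groups, and the shares above against untreated cells, a count of 0 is no result about so few genes. Between the siRNA groups 2 of the 6 myeloid markers had an unadjusted p under 0.05. LYZ was lower (limma unadjusted p = 0.014, adjusted p = 0.856) and ITGAM higher (limma unadjusted p = 0.0179, adjusted p = 0.92).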

How the data were processed

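The authors deposited intensity values, which per the file headers and the submitters' processing notes are linear PLIER signals after global median normalization, from Affymetrix Expression Console 1.1. The medians of the deposited signals over all probe sets were nevertheless unequal, from 69.2 to 91.8 between arrays. The study's own statistics used RMA values, which were not used here. The 2 deposited tables differ in 0 cells, and 12 columns of the authors' group means, fold changes and p-values were not used. Samples were grouped by their siRNA label. All 33297 probe sets entered the fit as log2(value + 16), in limma 3.58.1 (lmFit, eBayes) and R 4.3.3, with 3 groups of 4 arrays together. For arrays no read depth applies, and 4 arrays per group limit the precision. Of the probe sets, 19460 list 1 symbol, 1754 several and 12083 none, and 19429 symbols were found by gene ID. A list gene with several probe sets took that with the highest mean, while likeness was ranked over single probe sets. TUBB3, FOXD4 and TCF7 had no probe set with 1 symbol and were not analysed here, and the results of some other listed genes are not reported here.

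Named genes are the SOXC and other SOX genes, of each list the called members and up to 4 that had the lowest p, the 2 nearest protein-coding genes on each side of each SOXC gene, and the 5 genes most like each SOXC gene. Other genes named (PAX5, PDGFA, PTK2 and MSI2, the uncalled rest of a list, and cell type markers, CD22 among them) complete a list. The members, lists and rules were chosen with earlier results of these data known. Alternatives were quantile normalization, median centring, log2(value + 1), leaving out dim probe sets, a fit of the 2 groups compared, the methods' one-way analysis of variance, array weights, a robust prior with a trend, the replicate number as a block (also after quantile normalization), and the omission of each of the 12 arrays. The fit was tested on simulated data. Replicate numbers were not used as pairs in the main fit. Sequences are RefSeq windows.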

Additional observations from a re-analysis of the deposited data

Results flagged for a closer look

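In 14 of 261 groups of 4 arrays, over 87 named or marker probe sets, 1 array stood apart from the other 3, with a gap to the nearest array, as a share of the group's range, above Dixon's 95% critical value. Chance gives about 1 in 20 groups. SOX11 in SOX11 siRNA replicate 3 was at 187.51, with the nearest array at 225.28, a gap of 0.919 of the range that was 0.65 after quantile normalization. On the same array BBX, an HMG-box gene, was at 355.36, DENND11 at 249.44 and CD22 at 569.07, each the lowest of its group. In SOX11 siRNA replicate 4, RAG2, a recombinase of lymphocyte progenitors, was at 11.1, EPHA10, a receptor of the ephrin family, at 281.01 and HTR7P1 at 111.14, each the highest. In the control siRNA group CMPK2 was at 374.19 in replicate 1, the highest, CIC, another HMG-box gene, at 131.51 in replicate 2, the highest, and CCND1, the cyclin D1 gene, at 2935.03 in replicate 4, the lowest. Among the untreated arrays SOX30, a SOX gene of the testis, was lowest in replicate 1, at 15.22. In untreated replicate 3 CMPK2 was at 344.77 and the myeloid marker CSF1R at 24.97, the lowest, and FCGR3A, another such marker, at 14.44, the highest. After quantile normalization none of the 14 gaps passed that limit, but gaps in other groups did. Among them were SOX12 with control siRNA (0.844 of the range) and SOX8 with SOX11 siRNA (0.929).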

How the results depend on the processing

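The called falls of SOX11 and the uncalled results of SOX4 and SOX12 kept their side of the threshold in all 22 settings. The SOX12 change with SOX11 siRNA against untreated cells turned to 0.0766 with median centring (-0.132 to 0.0391 without 1 array). Calls between the siRNA groups (61) were 225 with quantile normalization, 174 with that and a replicate block, 38 with log2(value + 1), 26 in a fit of 2 groups, 29 by analysis of variance, and 27 to 70 without 1 array. Calls of control siRNA against untreated cells (129) were 644, 628, 62, 217 and 40 in that order, 250 without dim probe sets, 517 with array weights and 70 to 232 without 1 array. Calls of SOX11 siRNA against untreated cells (800, 268 higher and 532 lower) were 2378 (1266 higher and 1112 lower), 2419, 463, 445 and 433, 1321 with median centring (938 higher and 383 lower) and 360 to 1179 without 1 array. Median centring moved the median of all probe sets there by 0.103. The count of called neural targets was 0 in the fit of 2 groups and by analysis of variance (0 to 1 without 1 array). With quantile normalization 1 gene linked to SOX4 was called between the siRNA groups, 1 with SOX11 siRNA against untreated cells, also with the replicate block, and 1 regulator with control siRNA, likewise. Regulators called with SOX11 siRNA against untreated cells numbered 2 with both (1 to 3 without 1 array, 3 without SOX11 siRNA replicate 3). The cause was not tested. DICER1 and HBP1, uncalled, turned to 0.0293 and 0.0286 with array weights, and without 1 array NEFL ranged from -0.0355 to 0.0868, SEMA3C from -0.0523 to 0.193, DICER1 from -0.123 to 0.0731, ID1 from -0.031 to 0.208 and HBP1 from -0.112 to 0.0347. With the group means removed, same-numbered arrays of the 2 siRNA groups correlated at -0.018 to 0.115. The range was -0.251 to 0.289 for control siRNA and untreated cells, and -0.15 to -0.003 for SOX11 siRNA and untreated cells. These values cannot show whether same-numbered arrays came from the same experiment. With the replicate block the differences of -2.17 and -2.33 within arrays had an exact adjusted p = 0.125, the smallest possible. The other probe set of a SOXC gene could not be tried, as each has 1.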
